A study of Homo sapiens with 2 samples.

Results

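Histone lysine methylases add methyl groups to lysines of the histone tails and histone lysine demethylases remove them. Methylation of histone H3 at lysine 4 (H3K4) marks promoters and enhancers in use, and that at H3K36 marks transcribed gene bodies. Trimethylation at H3K9, H3K27 and H4K20 marks silent or compacted chromatin. Several of these enzymes are mutated or overproduced in colorectal and other cancers.

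The mRNAs of these enzymes were examined in RNA recovered with an antibody against QKI, an RNA-binding protein that regulates splicing, stability and translation of its target mRNAs. Members were chosen by gene symbol alone, as the KMT, KDM, SETD and NSD families with EZH1, EZH2, SUV39H1, SUV39H2, EHMT1 and EHMT2, leaving out KDM5D. This gave 44 genes of 18132 with a symbol of their own on the array, read by 161 of 44988 probe sets. Of the 44, 26 belong to the methylase families and 18 to the demethylases.

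The cells were SW480, an established human colorectal cancer line. Those of the siLnc group were transfected with siRNA against the long noncoding RNA NONHSAT136151, and those of the siNC group with negative control siRNA, at 100 pmol and with collection after 48 h in both. The comparison asks whether silencing NONHSAT136151 changed how much of each mRNA came down with QKI. RNA was measured on PrimeView arrays, which read each mRNA with 1 or more probe sets. There was 1 array for siLnc and 1 for siNC, so no difference has a replicate check and no p-value is given. IgG precipitates and input RNA were not analysed here, so the amount recovered with QKI and the total amount of an mRNA cannot be told apart.

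Values are log2 signals, and a difference is siLnc minus siNC, so that 1 on this scale is 2-fold. The median log2 signal was 3.29 on the siLnc array and 3.32 on the siNC array, and the robust SD (from the median absolute deviation) of the difference over all probe sets was 0.33. To show where signals cannot be told from background, 133 probe sets of 42 genes of other tissues (liver, muscle, blood cells and others) were used. In these, 95% lay below 4.22 on the siLnc array and below 4.62 on the siNC array, and these limits are used throughout. QKI mRNA itself had a mean log2 signal of 6.09 in siLnc and 6.66 in siNC over 6 probe sets. Their differences ran from -1.26 to 0.00, and 4 of the 6 lay above both limits. NONHSAT136151 was not among the named probe sets. Of 10 colorectal epithelial markers, 6 had a probe set above both limits (EPCAM, CDH1, KRT8, KRT18, KRT19 and CDX2), and VIL1, LGALS4, GPA33 and CDH17 had none. Of 15 genes of glands, airway lining and blood, 12 were at least 2-fold higher on the siLnc array, against 0.651% of all genes. The signals of the 15 ran from 1.29 to 10.09 with a median of 5.67 on the siLnc array. On the siNC array they ran from 1.55 to 5.64 with a median of 2.51. The list holds BPIFA1, whose difference of 6.83 was the highest of all genes, so its count is not evidence about such genes in general. The 18 probe sets of bacterial hybridization controls all had lower signals on the siLnc array, with log2 differences of -0.20 to -1.30. The part of these genes and controls in the values below was not tested.

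None of the 44 enzyme genes reached 2-fold between siLnc and siNC as the mean over its probe sets. The log2 differences of the genes ran from -0.30 for KDM5C and EZH1 to 0.57 for KDM3B. Over all genes, 0.651% were at least 2-fold higher in siLnc and 0.121% at least 2-fold lower, so a set of this size would hold few or none at that share. Lowering the threshold to 1.5-fold also gave 0 higher and 0 lower among the 44, where 4.26% of all genes were higher and 1.75% lower. Among the 161 probe sets, 1 was at least 2-fold higher and 0 were 2-fold lower, against 1.53% and 0.187% of all probe sets.

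**Figure D1:**
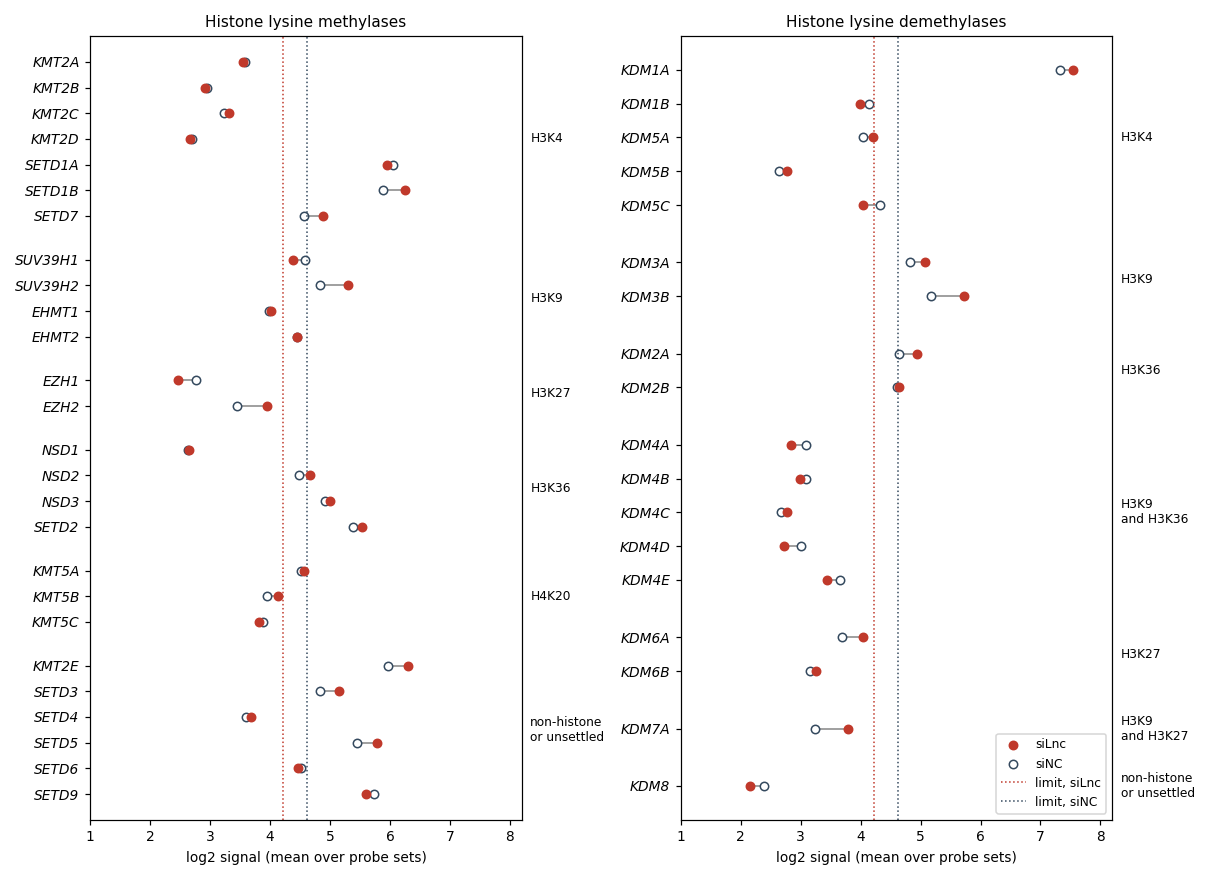
Log2 signal of each gene (mean over its probe sets) on the siLnc array (filled) and the siNC array (open), methylases on the left and demethylases on the right, grouped by the lysine they act on. The KDM4 genes are kept as 1 group under H3K9 and H3K36, although not all of them act on H3K36. Dotted lines mark the limits of 4.22 (siLnc) and 4.62 (siNC), and the short connectors show that no gene moved by as much as 1 on the log2 scale.

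The median log2 difference of the 44 genes was 0.08, against -0.06 over all genes. It was 0.06 for the methylase families and 0.10 for the demethylases, so these groups stood close together. They include 6 methylase family genes and the demethylase gene KDM8 whose products act on other proteins or lack a settled histone activity. Of the 44, 27 lay above 0, 16 below and 1 at 0, which is 61.4% above 0 against 39.2% of all genes. This share moves with signal on these arrays. Of all probe sets averaging under 2 on the log2 scale, 24.9% lay above 0, and of those averaging 6 to 7, 65.1%. When only probe sets above both limits were used, a choice made after the data were seen, 27 of the 44 genes remained. Of these, 17 (63.0%) lay above 0, against 58.2% of all genes treated the same way, and the medians were 0.20 and 0.08. Keeping only probe sets whose brighter value reached the median of its array gave 0.07 for 43 of the 44 genes. The median over all genes was then 0.04, so the distance between the medians depended on the probe sets kept.

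**Figure D2:**
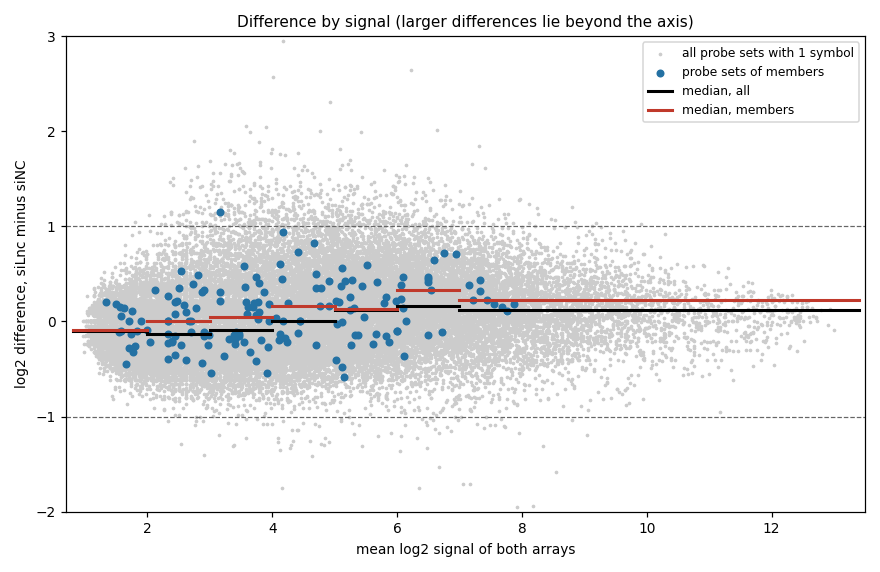
Log2 difference, siLnc minus siNC, against the mean log2 signal of both arrays for the 161 probe sets of the enzymes (blue) and all probe sets with 1 symbol (grey), with medians by signal range in red for the enzymes and black for all. Both medians are lower at low than at high signals, and 1 blue point lies beyond the dashed 2-fold lines.

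Within each range of signal, the median of the enzyme probe sets was higher than that of all probe sets, by an amount that varied. The 17 enzyme probe sets with a mean log2 signal below 2 had a median difference of -0.09, against -0.10 for all probe sets there. Of these, 35.3% lay above 0, against 24.9%. The 28 between 5 and 6 had 0.13, against 0.12, with 57.1% above 0, against 59.2%. The 34 between 2 and 3 had 0.00, against -0.13, with 41.2% above 0, against 26.2%. The 34 between 3 and 4 had 0.05, against -0.09, with 52.9% above 0, against 38.5%. No probe set averaging below 4 lay above both limits. The 22 between 4 and 5 had 0.16, against 0.00, with 59.1% above 0, against 49.4%. The 17 between 6 and 7 had 0.33, against 0.16, with 64.7% above 0, against 65.1%. The 9 above 7 had 0.23, against 0.12, with all 9 above 0, against 64.2% of all probe sets there. Between 5 and 7 the enzymes thus had no higher share above 0 than all probe sets. Probe sets of 1 gene are not independent, and with 1 array per condition these offsets were not tested.

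The methylases of H3K27 showed the widest gap between gene means among 15 pairs of close relatives. EZH2 is the catalytic subunit of Polycomb repressive complex 2 (PRC2) in dividing cells, and EZH1 is its counterpart in resting cells. EZH2 had a mean log2 signal of 3.95 in siLnc and 3.44 in siNC over 3 probe sets, a difference of 0.51. Its brightest probe set had 6.33 in siLnc and 5.86 in siNC, a difference of 0.47, and is the only one above both limits. The second had 3.73 in siLnc and 2.58 in siNC. That difference of 1.15 was the single enzyme probe set to reach 2-fold, and since both its signals lay under the limits its size is not exact. The third had 1.78 in siLnc and 1.88 in siNC, at background on both arrays.

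EZH1 had a mean of 2.46 in siLnc and 2.76 in siNC, and its 3 probe sets differed by -0.45, -0.32 and -0.12. None of the 3 lay above both limits, and the brightest (4.35 in siLnc and 4.47 in siNC) had the smallest difference. The probe sets of EZH2 and EZH1 did not overlap, but their ranges were only 0.02 apart, between the background EZH2 probe set at -0.10 and the brightest of EZH1 at -0.12. The gap between the gene means was 0.80, of which the brightest probe sets alone (0.47 and -0.12) show less. With the brightest probe sets NSD2 (0.23) and NSD3 (-0.36) stood as far apart, so EZH2 and EZH1 did not hold the widest gap alone.

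For the H3K9 methylases, SUV39H1 and SUV39H2 are close relatives that trimethylate H3K9 in pericentric heterochromatin, while EHMT1 (GLP) and EHMT2 (G9a) work as a pair on H3K9 in euchromatin. SUV39H2 had log2 signals of 7.55 in siLnc and 7.11 in siNC in its brighter probe set and 3.05 in siLnc and 2.56 in siNC in the other. The differences of 0.44 and 0.49 were alike, and the gene mean was 0.47. SUV39H1 went the other way, with a mean of 4.38 in siLnc and 4.59 in siNC. Its 5 probe sets ran from -0.54 to 0.00, and the brightest, at 6.15 on both arrays, showed no difference. EHMT1 had 0.03 as the mean of 3 probe sets that ran from -0.32 to 0.42. Its only probe set above both limits was the one at 0.42 (5.89 in siLnc and 5.47 in siNC). EHMT2 was read by 1 probe set at 4.45 on both arrays, under the siNC limit.

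The H3K4 methylases of the KMT2 family (also called MLL), large enzymes that act in COMPASS complexes, lay near 0. KMT2A had a mean of 3.54 in siLnc and 3.58 in siNC, KMT2B 2.92 in siLnc and 2.95 in siNC, KMT2C 3.31 in siLnc and 3.23 in siNC, and KMT2D 2.67 in siLnc and 2.70 in siNC. Of their 18 probe sets, only 3 of the 8 of KMT2A lay above both limits. These 3 did not move together, with differences of 0.37, -0.24 and -0.41. No level of change is therefore read for the KMT2A gene as a whole. Another 4 probe sets shared between KMT2C and genes of the BAGE family were left out of the gene values. They had signals from 1.5 to 2.52 and differences from -0.24 to 0.51.

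SETD1A and SETD1B, the main H3K4 trimethylases of COMPASS, are each read by 1 probe set above both limits. SETD1B had 6.26 in siLnc and 5.88 in siNC, a difference of 0.38, while SETD1A had 5.95 in siLnc and 6.05 in siNC, a difference of -0.10. SETD7, which monomethylates H3K4 and several other proteins, had 7.49 in siLnc and 7.17 in siNC in its brighter probe set. The other SETD7 probe set was dim (2.28 in siLnc and 1.95 in siNC) and differed by 0.33, next to 0.32 in the brighter one.

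The 4 methylases of H3K36 had gene means from 0.01 to 0.19. The sign did not hold for NSD3, at -0.02 after quantile normalization between the arrays, -0.07 above both limits and -0.36 with the brightest probe set, or for NSD1, at -0.04 with the median over probe sets. SETD2, the enzyme that trimethylates H3K36 in transcribed genes, had differences of 0.14, 0.15 and 0.17 over probe sets whose signals ran from 2.67 to 7.75 in siLnc and from 2.50 to 7.60 in siNC. NSD2, which dimethylates H3K36 and is activated by translocation in multiple myeloma, was read by 12 probe sets with a mean difference of 0.19. They ran from -0.19 to 0.94, the widest range after EZH2. The probe set at 0.94 had 4.64 in siLnc and 3.70 in siNC, under the limit in siNC. Of the 6 above both limits, 1 had 0.71 (7.30 in siLnc and 6.59 in siNC) and another, of similar signal, 0.23 (7.33 in siLnc and 7.10 in siNC). The transcripts read by each probe set were not analysed here. NSD1 had 0.01 over 8 probe sets, none of them above both limits. NSD3 had 0.10 over 4 that ran from -0.36, in the brightest, to 0.35.

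The H4K20 methylases had gene means from -0.07 to 0.20. KMT5A (SET8), which lays down the first methyl group on H4K20 in mitosis, had 4.56 in siLnc and 4.52 in siNC over 5 probe sets from -0.22 to 0.15. The names of all 5 end in _s_at or _x_at, so KMT5A has no value when such probe sets are left out. KMT5B, which adds the second and the third, had 0.20 over 6 probe sets, and the 4 above both limits averaged 0.30. KMT5C, with the same activity, had -0.07 over 2.

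The remaining members of the methylase families act mainly on other proteins or have no settled histone activity. KMT2E, a PHD and SET domain protein regarded as lacking methylase activity, had the most probe sets of 1 direction among the members. All 9 lay above 0, from 0.11 to 0.65, and 7 of the 9 lay above both limits with a mean of 0.34. The 2 brightest showed 0.18 (7.96 in siLnc and 7.78 in siNC) and 0.11 (7.82 in siLnc and 7.71 in siNC), below the gene's mean. SETD5, whose loss causes intellectual disability, had 0.34 from differences of 0.24 and 0.43, both in probe sets above the limits. SETD3, which methylates a histidine of actin, had 0.31 over 6 probe sets that ran from -0.01 to 0.72. SETD4 had 0.08 as the mean of 0.58 and -0.42, so that its probe sets contradict each other, both below the limits. SETD6, which methylates the NF-kB subunit RELA, had -0.03 and SETD9 -0.13.

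**Figure D3:**
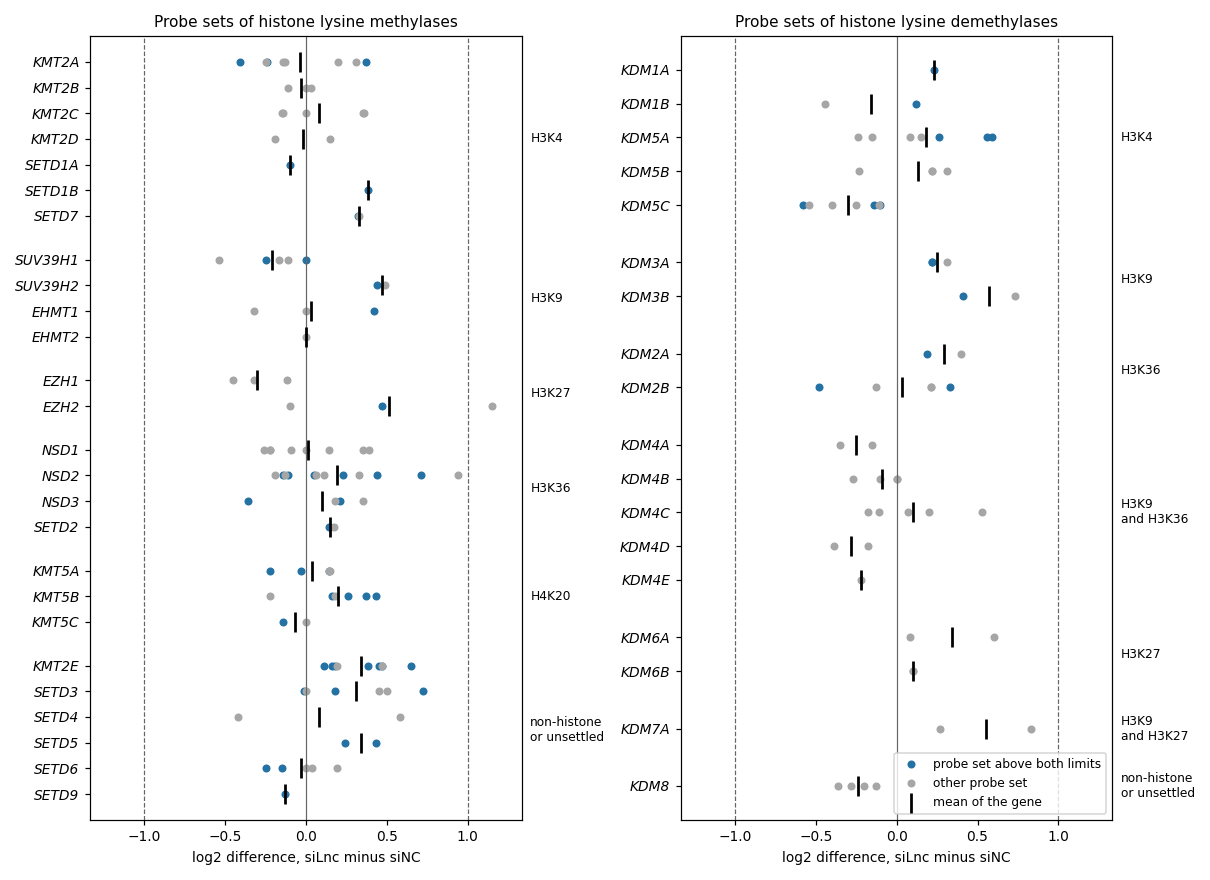
Log2 difference, siLnc minus siNC, of every probe set of the 44 genes (dots, blue where the probe set lay above both limits and grey elsewhere), with the mean of each gene as a black bar and 2-fold as dashed lines. All 9 probe sets of KMT2E lie right of 0 and all 7 of KDM5C left of it, while those of KMT2A, NSD1 and NSD2 spread over both sides.

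Among the demethylases, KDM3B and KDM7A had the highest gene means. KDM3A and KDM3B are close relatives that take methyl groups off mono- and dimethylated H3K9. KDM3B had the highest difference of the 44 genes, 0.57 as the mean of 2 probe sets, but this place depended on the processing. KDM7A and EZH2 stood above it after cyclic loess between the arrays (0.59 for KDM7A, 0.53 for EZH2 and 0.49 for KDM3B), after quantile normalization (0.55, 0.49 and 0.45), with the filter at the array median (0.83, 0.81 and 0.57) and with the brightest probe set (0.83, 0.47 and 0.41). With the brightest probe set KDM6A (0.60), SUV39H2 (0.44) and EHMT1 (0.42) stood above KDM3B too. Above both limits EZH2 and KDM5A, both at 0.47, SUV39H2 at 0.44 and EHMT1 at 0.42 stood above KDM3B at 0.41. The brighter KDM3B probe set had 6.70 in siLnc and 6.29 in siNC, a difference of 0.41. The other had 4.77 in siLnc and 4.04 in siNC, a difference of 0.73 with the siNC value under its limit. KDM3A, a gene induced by hypoxia, had 0.22, 0.22 and 0.31 over its 3 probe sets, with 6.09 in siLnc and 5.87 in siNC in the brightest. Its probe sets did not overlap those of KDM3B. KDM7A, which acts on H3K9 and H3K27, had 0.55 as the mean of 0.83 (5.08 in siLnc and 4.25 in siNC) and 0.27 (2.47 in siLnc and 2.20 in siNC). No probe set of KDM7A lay above both limits, so that its difference is measured partly against background.

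The 5 KDM4 genes, whose enzymes act on trimethylated H3K9 and only some of them on H3K36, lay lower, with a median of -0.22. KDM4D had -0.28 (probe sets at -0.39 and -0.18), KDM4A -0.25 (-0.35 and -0.15), KDM4E -0.22, KDM4B -0.09 and KDM4C 0.10. None of their 14 probe sets lay above both limits. The median over all probe sets averaging 2 to 3 on the log2 scale was -0.13, so the direction of this family is not told from that of dim probe sets in general. KDM4D and KDM4E are close copies, and whether their probe sets tell them apart was not tested.

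For the H3K4 demethylases, KDM5C had a mean of -0.30, level with EZH1 at the lower end of the 44 genes. Other genes were lowest under some alternatives, EZH1 (-0.32) with the median over probe sets, SETD4 (-0.42) with the brightest, KDM8 (-0.36) with the filter at the array median and KDM4D (-0.39) without probe sets named _s_at or _x_at. KDM5C is an X-linked enzyme that removes H3K4 trimethylation and is mutated in intellectual disability. Its 7 probe sets all lay below 0. The 3 above both limits had 4.86, 6.43 and 5.95 in siLnc, against 5.44, 6.57 and 6.05 in siNC, and the 2 brighter of these differed by only -0.14 and -0.10. The relatives KDM5A, a partner of the retinoblastoma protein, and KDM5B did not share this direction. KDM5A had 0.18 over 7 probe sets from -0.24 to 0.59, with 0.26, 0.56 and 0.59 in the 3 above both limits. KDM5B had 0.13 over 4 probe sets, all under the limits. KDM1A (LSD1), the flavin-dependent demethylase of the CoREST complex, had 7.55 in siLnc and 7.32 in siNC in its 1 probe set. That probe set is named _s_at, so KDM1A has no value when such probe sets are left out. KDM1B (LSD2) had 0.12 in its brighter probe set (5.31 in siLnc and 5.19 in siNC) and -0.44 in the dim one.

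The H3K27 demethylases KDM6A (UTX) and KDM6B (JMJD3) had 0.34 and 0.10. KDM6A had 0.60 (4.43 in siLnc and 3.83 in siNC) and 0.08 (3.63 in siLnc and 3.55 in siNC), and no probe set of either gene lay above both limits. KDM2A and KDM2B bind unmethylated CpG islands and act on H3K36. KDM2A had 0.19 (5.89 in siLnc and 5.70 in siNC) and 0.40 in its 2 probe sets. KDM2B had 0.03 over 5, of which the 2 above both limits pointed opposite ways, at 0.33 and -0.48. KDM8, whose histone activity is disputed, had -0.24 over 4 dim probe sets from -0.36 to -0.13.

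Taken over probe sets, 87 of the 161 lay above 0, 63 below and 11 at 0. At the lower threshold of 1.5-fold, 9 were higher in siLnc (5.59%, against 7.34% of all probe sets) and 0 were lower (against 2.54%). The 9 belong to 8 genes, which are EZH2, NSD2 (with 2), KDM7A, KDM3B, SETD3, KMT2E, KDM6A and KDM5A, and 4 of the 9 lay above both limits. These counts are at or below the share over the whole array. Of 38 genes with 2 or more probe sets, 11 (28.9%) had every probe set above 0 and 5 (13.2%) every one below, against 19.6% and 25.1% of the 11734 such genes on the array. Another 19 had probe sets on both sides, and 3 (SUV39H1, KMT5C and KDM4B) had probe sets at or below 0. The median distance between the lowest and the highest probe set of a gene was 0.49, against 0.35 over all such genes, and wider than the difference of most of the enzyme genes. The median number of probe sets was 3 for the enzymes and 3 for all such genes, and the distances were not matched on signal.

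In 15 pairs of paralogues, 7 had gene means on opposite sides of 0, and in 5 the probe sets did not overlap. The 5 were EZH2 and EZH1 (0.51 and -0.30), SUV39H1 and SUV39H2 (-0.21 and 0.47), SETD1A and SETD1B (-0.10 and 0.38), KDM1A and KDM1B (0.23 and -0.16), and KDM3A and KDM3B (0.25 and 0.57). SETD1A, SETD1B and KDM1A each rest on 1 probe set, so the absence of overlap says little there. For EZH2 and EZH1 it rests on a distance of 0.02 between probe sets of which neither lay above both limits. EHMT1 and EHMT2 (0.03 and 0.00) and KDM5A and KDM5B (0.18 and 0.13) had close gene means, but EHMT1 had 0.42 and KDM5A 0.47 over probe sets above both limits, where EHMT2 and KDM5B had none. Without replicate arrays no gap between paralogues has an error of its own. Among the 44 genes 27 lay above 0 and 16 below, and the counts of pairs were not set against other gene pairs. They are therefore not read as a trait of paralogues. NSD2 is paired with both NSD1 and NSD3, while KDM5C, KDM4B, KDM4D and KDM4E are in no pair.

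**Figure D4:**
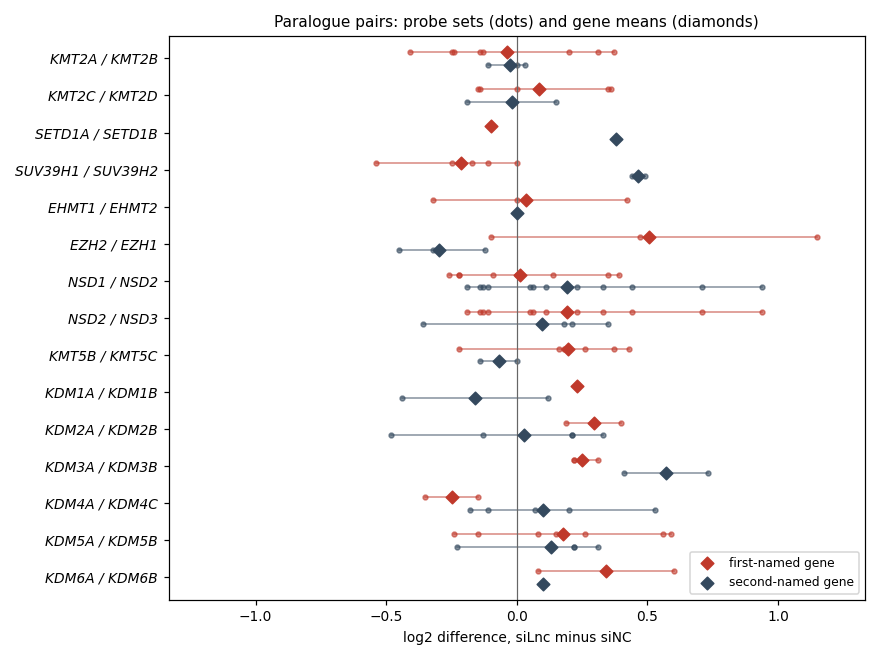
Log2 difference, siLnc minus siNC, for 15 pairs of related enzymes, with probe sets as dots, their range as a line and the gene mean as a diamond, the first-named gene of a pair in red above the second in dark blue. The ranges of SUV39H1 and SUV39H2 lie apart, those of EZH2 and EZH1 by only 0.02, and most other pairs overlap.

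The enzymes work with partner proteins, whose mRNAs were read on the same arrays. For the lists below, the values over all genes were 39.2% above 0 and a median of -0.06. Above both limits they were 58.2% and 0.08. Of 9 PRC2 partners, 8 lay above 0, with a median of 0.23 (0.39 above both limits), and 0 reached 2-fold as a mean. MTF2, which brings PRC2 to CpG islands, had 6.01 in siLnc and 5.03 in siNC, and its 9 probe sets ran from 0.70 to 1.31. EED, the subunit that reads H3K27 trimethylation, had 5.06 in siLnc and 4.30 in siNC over 4 probe sets from 0.21 to 1.30. SUZ12, a core subunit needed for activity, had 7.28 in siLnc and 6.74 in siNC. As gene means, EZH2 (0.51) lay below MTF2 (0.97), EED (0.76) and SUZ12 (0.54) and above RBBP7 (0.39), AEBP2 (0.23), PHF19 (0.22), RBBP4 (0.12), JARID2 (0.01) and PHF1 (-0.06).

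For COMPASS, 9 of 11 partner genes lay above 0 with a median of 0.22, which was 0.08 after cyclic loess and 0.06 after quantile normalization between the arrays. ASH2L, a core subunit, had the highest difference (0.50) and HCFC1 the lowest (-0.26). The CoREST complex, in which KDM1A acts, had 3 of 8 genes above 0 and a median of -0.06, a direction that turned to 0.12 with the brightest probe set and to 0.20 above both limits, where 4 of 7 genes lay above 0. Its scaffold RCOR1 had 0.54 (5.16 in siLnc and 4.62 in siNC) and the paralogue RCOR2 -0.51 (2.71 in siLnc and 3.22 in siNC, under the limits).

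Lysine methylases and demethylases outside the families above had medians whose sign depended on the processing. The methylases had 4 of 11 genes above 0 with a median of -0.01 (-0.16 with the brightest probe set and 0.16 above both limits), and SMYD2, which methylates p53 among others, had 8.61 in siLnc and 9.0 in siNC. SETDB1, an H3K9 methylase that silences retroelements, had 3.46 in siLnc and 3.83 in siNC, under the limits. The demethylases had 3 of 7 above 0 with a median of -0.07 (0.26 with the filter at the array median, 0.24 with the brightest probe set and 0.14 above both limits), with RIOX1, a nucleolar oxygenase, at 0.56 and HR, the hairless corepressor, at -0.49. Neither list had a gene at 2-fold.

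Other chromatin enzymes included genes that did reach 2-fold. Over all partner and other chromatin lists, 4 of 101 genes were at least 2-fold higher in siLnc, against 0.651% of all genes. Only HELLS and CHD7 of these stayed at 2-fold after cyclic loess and after quantile normalization. The lists were chosen with earlier results of these data known. They were also brighter, with 77 of the 101 genes having a probe set above both limits, against 8279 of 18132. No excess over the array is therefore read from this count. Among arginine methylases 6 of 9 lay above 0. Their median was 0.24, or 0.12 after cyclic loess and 0.10 after quantile normalization or without _s_at and _x_at probe sets. PRMT5, which dimethylates arginines of histones and of splicing proteins, had 7.04 in siLnc and 5.96 in siNC in its 1 probe set. The PRMT5 difference was 1.08 (0.94 after cyclic loess and 0.92 after quantile normalization). That probe set is named _s_at or _x_at, so PRMT5 has no value when such probe sets are left out. Among histone acetylases (8 of 10 above 0, median 0.11, or -0.02 after quantile normalization) HAT1, which acetylates newly made histone H4, had 7.70 in siLnc and 6.56 in siNC, a difference of 1.14 (0.99 after cyclic loess and 0.98 after quantile normalization). Of 20 chromatin remodelling ATPases, 17 lay above 0 with a median of 0.18 (0.28 above both limits), and HELLS (5.13 in siLnc and 3.65 in siNC, a difference of 1.47) and CHD7 (6.77 in siLnc and 5.55 in siNC, a difference of 1.22) reached 2-fold. Of the 3 HELLS probe sets, 1 lay above both limits, at 1.31. The histone deacetylases lay mostly below 0, as did most genes of the array. Of 18, 5 (27.8%) lay above 0 with a median of -0.12, against 39.2% and -0.06 over all genes. Above both limits the deacetylase median was -0.12, against 0.08 over all genes. HDAC10 (-0.36) and SIRT5 (-0.35) had the lowest gene means. HDAC10 was read by 1 probe set under the limits (3.69 in siLnc and 4.05 in siNC). Of the 3 probe sets of SIRT5, 1 lay above both limits. No test of the difference between these lists and the lysine methylases and demethylases was made, since there is 1 array per condition.

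**Figure D5:**
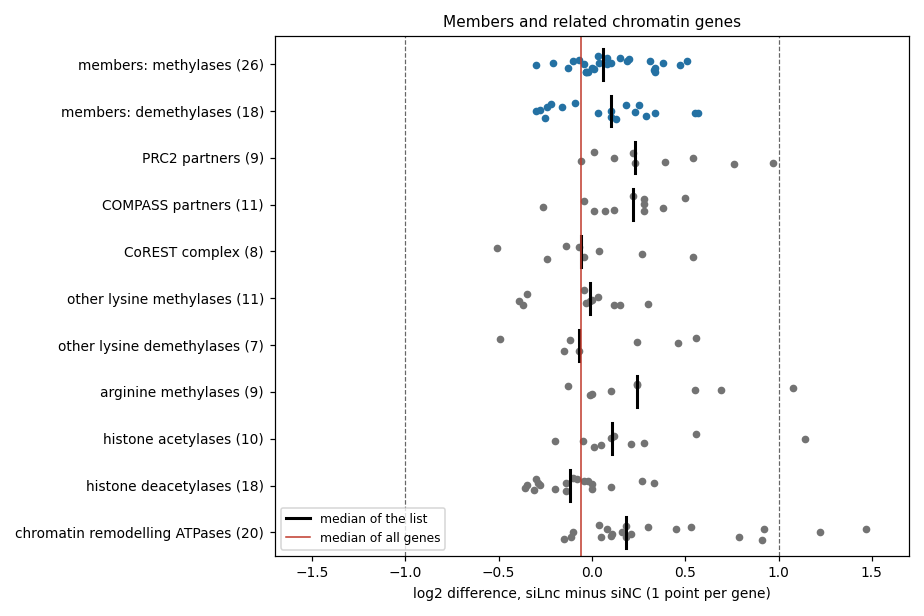
Log2 difference, siLnc minus siNC, of each gene (points) in the methylases and demethylases (blue, top) and in lists of partner proteins and other chromatin enzymes (grey), with list medians as black bars, the median of all genes (-0.06) as a red line and 2-fold as dashed lines. The blue points all lie between -0.30 and 0.57, while PRMT5, HAT1, CHD7 and HELLS lie beyond the right dashed line (PRMT5 and HAT1 not after cyclic loess or quantile normalization).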

How the data were processed

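RNA recovered with anti-QKI antibody from SW480 cells of the siLnc and siNC groups was measured on PrimeView arrays. The authors deposited log2 signals with 2 decimals, 1 per probe set and array. The scale was read off the values, which exceed what a natural log of a scan could reach. A company ran the arrays, with GCOS named in the submitters' processing notes. The background correction, the summary over probes and the normalization were not given in the sources used here, and a scaling that equalized the arrays would hide a change shared by all mRNAs.

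Gene names came from the platform's annotation, and all 44 member symbols matched RefSeq gene identifiers. Of 49371 probe sets, 79 controls were left out, and 1832 with several symbols and 2472 unnamed here entered no gene value. The siNC signal was subtracted from the siLnc signal, and a gene's value was the mean over its probe sets. Called means at least 2-fold, the threshold that the methods state for the study's other array. The members, roles, partner lists and background genes were chosen with earlier results of these data known. Every member could be named, with full probe set values for those with a probe set at 2-fold and the 4 highest and 4 lowest, and of each partner list the genes at 2-fold or the 2 with the largest differences. HCFC1 and the remaining PRC2 partners were named after their values were seen. The filter at the array median kept probe sets whose brighter value reached the median of its array. The calculation was tested on simulated data. The sequences of the mRNAs were not analysed here. Alternatives used limma 3.58.1 in R 4.3.3, and other steps Python 3.11.15 with numpy 2.4.6 and pandas 2.3.3.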

Additional observations from a re-analysis of the deposited data

How the results depend on the processing

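No paired analysis was possible because there was 1 array per condition and no replicate number. In the same design no replicate could be left out. The count of 0 genes at 2-fold in either direction held under every alternative run for it. The median of the 44 genes ran from 0.04 to 0.11 under cyclic loess, quantile normalization, median centring, the filter at the array median, the brightest or the median probe set, and the omission of probe sets named _s_at or _x_at. The median of all genes moved as well, from -0.06 to -0.02 after cyclic loess and -0.04 after quantile normalization. With the filter at the array median it was 0.04, close to the 0.07 of the enzymes. For the enzymes above both limits, the result was as follows. Over probe sets above both limits (added after the data were seen) the median of the enzymes was 0.20, with 17 genes above 0 of 27 left. It was 0.20 for methylases and 0.21 for demethylases, and the cause was not tested. Of 161 probe sets, 9 were higher at 1.5-fold, 0 at 3-fold, and 0 of the 58 above both limits at 2-fold. Between 1 and 5 genes changed sign under each alternative. With the brightest probe set EHMT1 had 0.42, NSD1 0.35, NSD3 -0.36 and SETD4 -0.42.

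Alternatives for the partner lists were added after the data were seen, and the cause of each shift was not tested. The median of PRC2 partners was 0.40 with the filter at the array median, and 0.39 with the brightest probe set and above both limits. COMPASS had 0.08 after cyclic loess and 0.06 after quantile normalization. CoREST had 0.12 with the brightest probe set and 0.20 above both limits. The other lysine methylases had -0.16 with the brightest probe set and 0.16 above both limits. The other lysine demethylases had 0.26 with the filter at the array median, 0.24 with the brightest probe set, 0.05 with the median over probe sets and 0.14 above both limits. Arginine methylases had 0.12 after cyclic loess, 0.10 after quantile normalization and 0.10 without _s_at and _x_at probe sets. Histone acetylases had -0.02 after quantile normalization, and the remodelling ATPases 0.28 above both limits.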
